A study of Mus musculus with 36 samples.

Results

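The Hoxc cluster genes are the 9 mouse Hox genes that lie together on chromosome 15, in the order Hoxc4, Hoxc5, Hoxc6, Hoxc8, Hoxc9, Hoxc10, Hoxc11, Hoxc12 and Hoxc13. They were taken by gene symbol, as every probe of the deposited non-normalised table that carried the name of a member. This gave 9 of the 30869 gene symbols in the table and 11 probes, with 2 probes each for Hoxc10 and Hoxc11, which are given by the brighter probe unless the other is named. A probe was tested if its detection p-value was under 0.01 on at least 1 array. The detection p-value compares a probe with the negative-control beads of the same array. By that rule 7 of the 9 genes were tested, and Hoxc5 and Hoxc8 were not tested. Because a probe enters through the regions where it is bright, counts below are given over the 9 genes.

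The study profiled regions of MF1 mouse embryos, some of which hold neuromesodermal progenitors (NMPs), on Illumina BeadChips. At E7.5, the headfold stage, the regions were anterior (A, 3 arrays), posterior (P, 2) and proximal posterior (PP, 2). At E8.5 the primitive streak gave an anterior (St1, 2) and a posterior (St5, 2) region, its border with the node gave NSB (3), the rostral part of the node gave RN (2), and the epiblast lateral to the streak gave CLE (3), the caudal lateral epiblast. The tail bud gave the chordoneural hinge (CNH) at E9.5 (2), E10.5 (2), E11.5 (3), E12.5 (2) and E13.5 (2). Tail bud caudal to the hinge (P-CNH) was taken at E9.5, E10.5 and E11.5 (2 each). All groups share the MF1 strain, and the labels name no genotype or treatment. Each array holds RNA amplified from a pool of 6 to 74 dissected pieces, so the spread between replicates includes differences between pools. Every sample mixes cell types. The paper places NMPs in NSB, CLE and CNH. It gives St1 and P-CNH as mesoderm-fated descendants of NMPs, and A as neural-fated. PP and St5 hold progenitors of lateral and paraxial mesoderm in its account, and RN, NSB and CNH hold notochord progenitors. The 36 arrays fall into 3 labelled batches of 12. RN, St1, St5, both E10.5 regions and NSB replicates 1 and 2 make up batch 1, and NSB replicate 3, in batch 3, is the only array that ties batch 1 to the other batches. Fitted with batch terms, NSB is thus compared with regions of batches 2 and 3 through replicate 3 alone. With other regions of batch 1 it is compared through replicates 1 and 2.

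Hox genes encode homeodomain transcription factors that give cells their position along the head-to-tail axis. In vertebrates the genes of a cluster are activated in sequence as the body extends, from the 3′ end of the cluster, where the lowest-numbered genes lie, to the 5′ end, and genes further 5′ are generally active further towards the tail. Members that carry the same number in different clusters are paralogues, and the posterior paralogues, numbered from 9 upwards, pattern the trunk end, the hindlimb level and the tail.

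In RefSeq (assembly GRCm38.p6) 14 genes lie from Hoxc13 to Hoxc4, and the 5 that are not Hoxc genes are Mir615, Mir196a-2, Hotair, Gm29905 and Gm36878. Counting a gene as detected in a region when every array of the region had a detection p-value under 0.01, the Hoxc genes were detected in 54 of 144 gene and region pairs. Hoxc6 was detected in 14 regions, Hoxc9 in 13, Hoxc10 in 9, Hoxc11 in 4, Hoxc12 in 6, Hoxc13 in 7 and Hoxc4 in 1, while Hoxc5 and Hoxc8 were detected in none. For the sole or brighter probes of the detected genes from Hoxc6 to Hoxc12 the earliest stage was the same or later with each gene, with Hoxc6 in E7.5 PP, Hoxc9 in all 5 E8.5 regions, Hoxc10 in E8.5 St5, Hoxc11 in E9.5 CNH and Hoxc12 in both E10.5 regions. The dimmer Hoxc10 probe was detected from E7.5 A and P, before Hoxc9, and does not follow this order. Hoxc13, at the end of the cluster, was detected in E9.5 CNH and so stood before Hoxc12 in this order, and Hoxc4, at the other end, was detected on every array of E9.5 CNH alone at this threshold. With the detection threshold at 0.05 the pairs numbered 66. Hoxc4 was then detected in 8 regions, the earliest of them E7.5 A and P, Hoxc9 in E7.5 PP and Hoxc12 in E9.5 CNH. The place of Hoxc4 in the order, and that of Hoxc12 and Hoxc13, thus depends on the threshold. Each onset is that of a probe, and how weakly each probe binds its transcript was not measured.

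**Figure D1:**
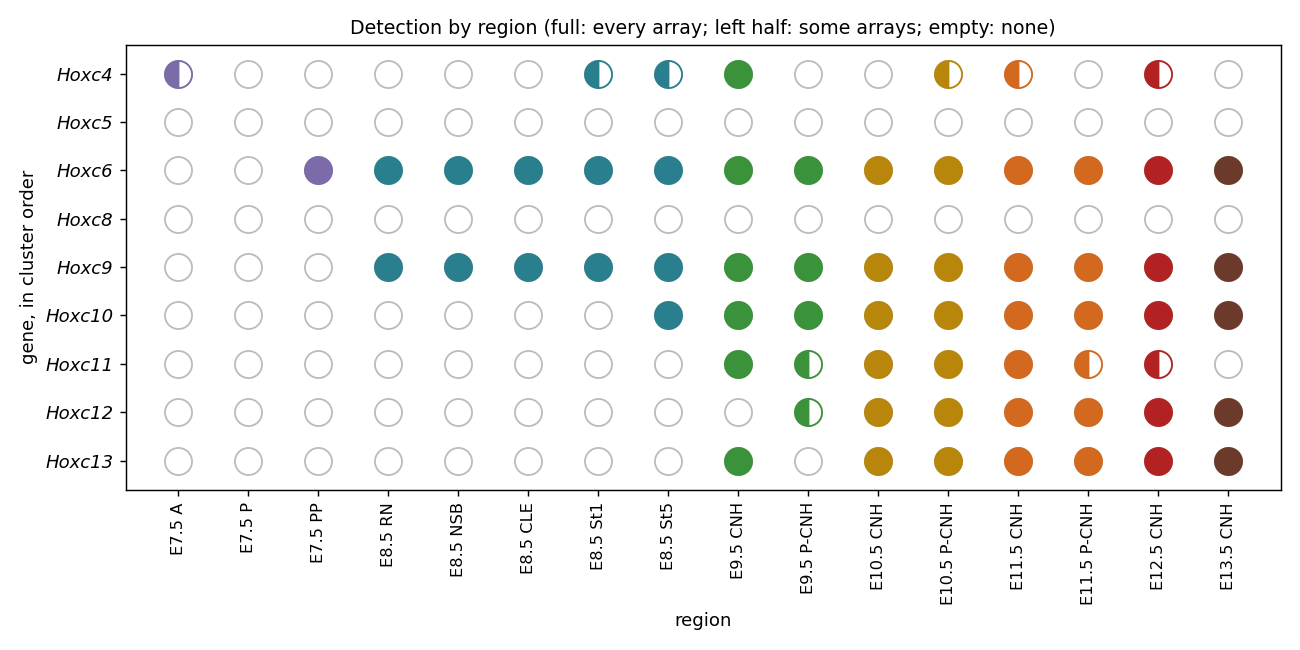
Detection of the 9 Hoxc genes, in cluster order, in the 16 regions. A full cell marks a region where every array detected the probe, the left part of a cell one where some arrays did, and an empty cell none.

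Normalised log2 intensities of the same 9 genes on every array show the depth of the gaps between regions. In the anterior E7.5 region, where Hoxc6 was not detected, its probe read 4.52 to 4.54 after normalisation, and the brightest Hoxc6 array, in E9.5 P-CNH, reached 13.44. Since probes differ in how strongly they bind, values are compared between regions for 1 probe and not between genes. Array quality differed between batches: 15481 to 16256 probes were detected on an array of batch 1, 11062 to 15388 in batch 2 and 10814 to 16241 in batch 3. The lowest of these, 10814, was E13.5 CNH replicate 2.

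**Figure D2:**
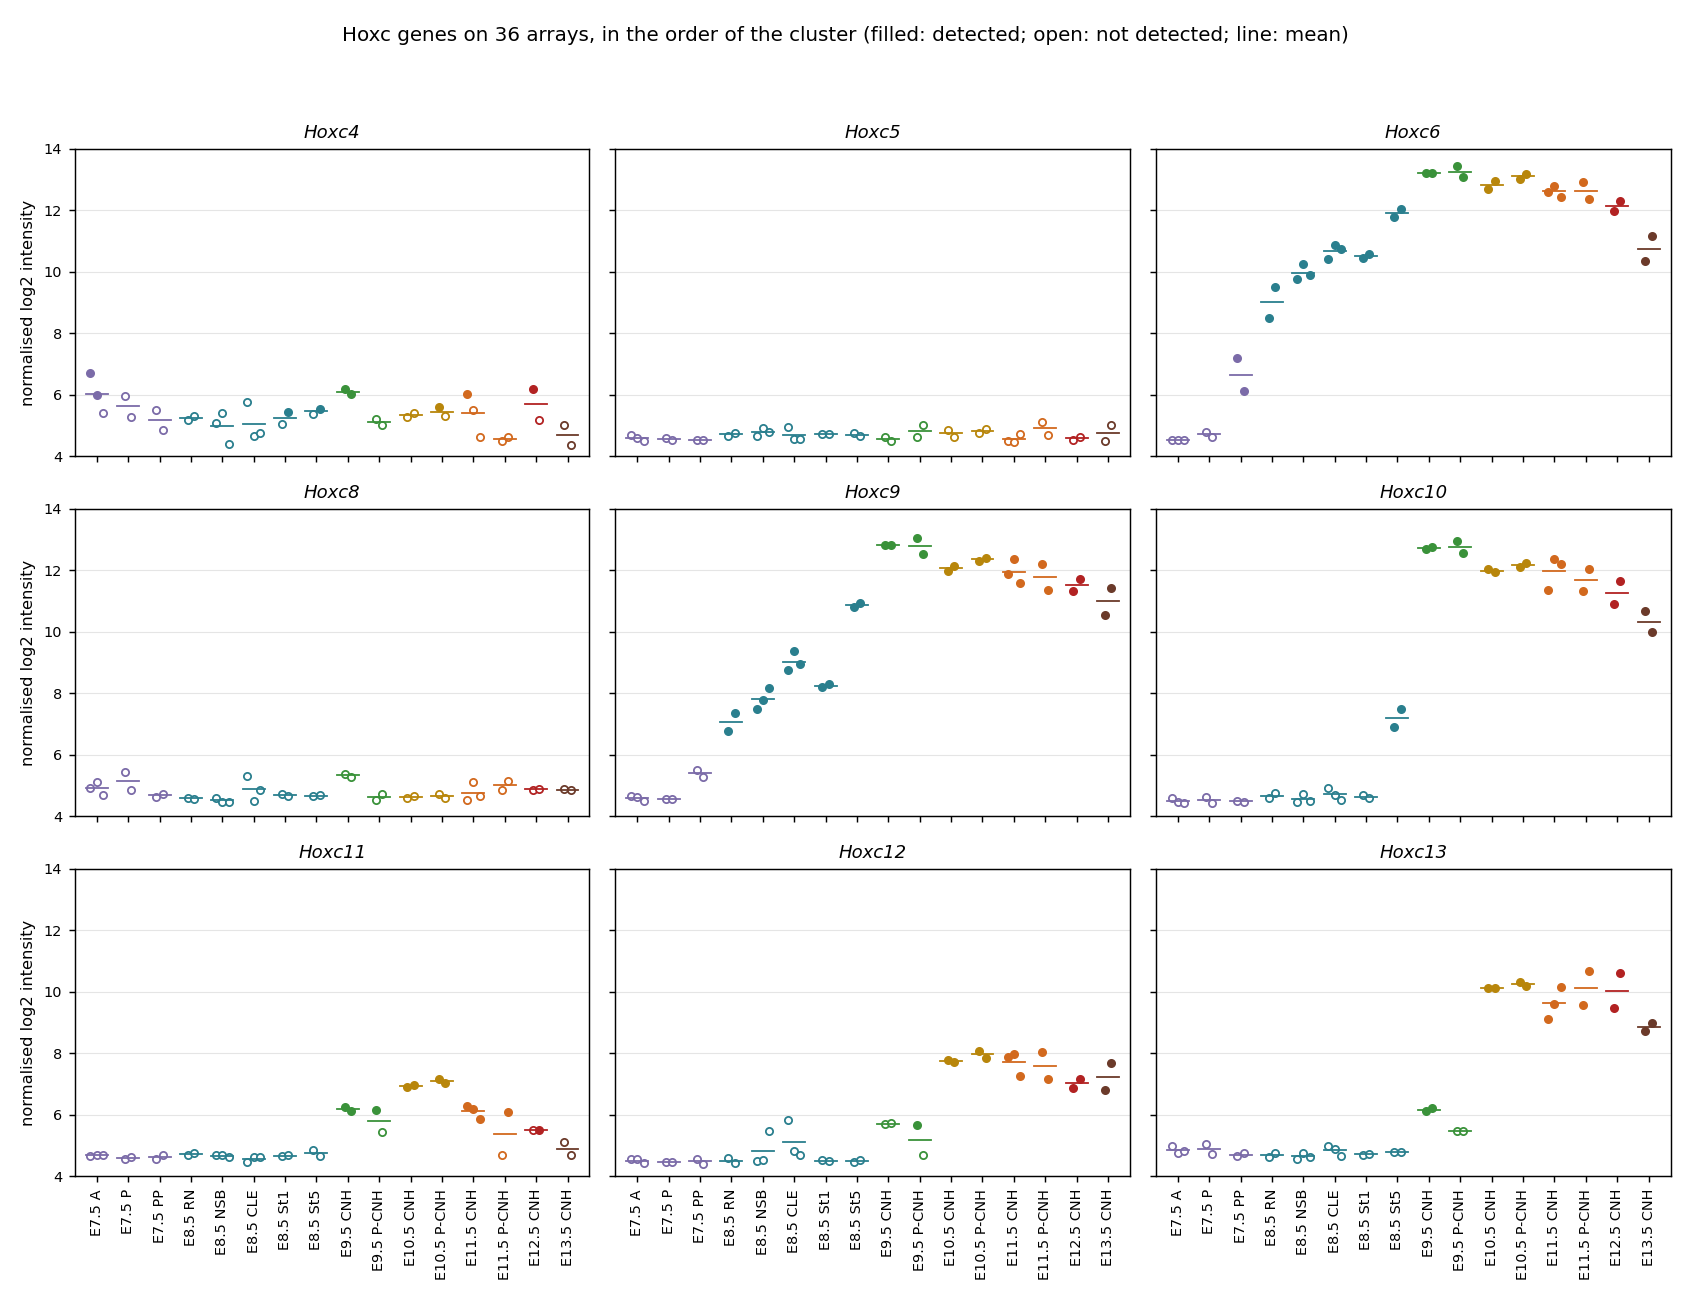
Normalised log2 intensity of each Hoxc gene on each of the 36 arrays, by region. Filled points were detected, open points were not, and lines mark the mean of a region.

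The marker genes chosen for the tissues that a dissection could hold separated the regions. T, which marks the streak, the notochord and the tail bud, had the brightest probe of 5 node and notochord markers in every region (mean log2 12.53 in NSB and 13.56 in E9.5 CNH). All 5 of these markers (Noto, Foxa2, Shh and Chrd with T) were detected on every array of RN, NSB and the CNH from E9.5 to E12.5, whereas Noto, Foxa2 and Shh were detected on no array of CLE or of P-CNH at E9.5 and E10.5. No array detected either neural crest marker. Sums of marker levels are given below, in normalised intensity units, beside the Hoxc results they move with. The marker named as brightest is the one whose probe gave the highest signal, which need not be the most abundant transcript.

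At E7.5 the posterior embryo holds the primitive streak and the anterior embryo the headfolds. Hoxc6, which acts in thoracic patterning, was the only member that its sole or brighter probe detected on every array of any E7.5 region. Its values were 4.54, 4.52 and 4.53 in A, 4.80 and 4.64 in P, and 7.19 and 6.11 in PP. Both PP arrays lay above every A and P array, and no A array detected the probe.

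In PP against A, limma called 1 of the 9 genes higher, against 3.17% of tested probes. A call needed an adjusted p of at most 0.05 over all 21712 tested probes and a change of at least 1.5-fold. Hoxc6 rose by 2.03 log2 units (SE 0.324, adjusted p = 0.000182), at least 1.74-fold, a call that is lost when the offset of the background correction is 100 in place of 16 (adjusted p = 0.0838). Where no array of the dimmer group detected a probe, "at least" sets the mean of the brighter group against the dimmer group's mean of, on each array, the probe's own signal or the lowest signal among detected probes, whichever is higher. Within batch 3, with 2 PP arrays against 1 A array, the difference was 2.12, and 0 probes of any gene passed limma there. Hoxc9 gave 5.51 and 5.29 in PP and 4.66, 4.62 and 4.49 in A, with no array of either region detected. It was not called (adjusted p = 0.164), and it was without the 4 arrays with the fewest detected probes, an alternative chosen after seeing the data (adjusted p = 0.00668). The 7 visceral endoderm markers summed to 14646 to 32047 per array in PP, where Ttr was brightest (12.89) and none was undetected, and to 1633 to 8798 in A. The 2 presomitic markers summed to 2886 to 3093 in PP and to 105 to 134 in A. The 3 anterior neural markers summed to 106 to 124 in PP and to 3116 to 5623 in A, and T had means of 13.11 and 10.35. The part of these markers in the Hoxc6 result was not tested. In bulk samples such as these, fewer cells that express a gene and less RNA per cell cannot be told apart.

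In P against A limma called 0 of the 9 genes, against 2.67% of probes in either direction, and 1 passed unadjusted p < 0.05. That gene was Hoxc4, the most 3′ member, with 6.70, 6.00 and 5.41 in A, detected on 2 of the 3 arrays, and 5.97 and 5.29 in P, where it was not detected. The arrays overlap (difference -0.70, adjusted p = 0.243; -0.73 within batch 2). A and P replicates 1 hold 9 pieces each and replicates 2 hold 13 each, all on BeadChip 3. The labels do not say whether they share embryos. P read below A in replicates 1 (5.97 against 6.70) and in replicates 2 (5.29 against 6.00).

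Between E7.5 P and the E8.5 NSB, a site of NMPs, Hoxc6 and Hoxc9 appeared. Hoxc6 read 9.76, 10.25 and 9.89 in NSB. Hoxc9, the first of the posterior paralogues, read 7.48, 7.77 and 8.18 there and 4.55 and 4.55 in P. For both genes every NSB array lay above every P array, and no P array detected Hoxc9. No NSB array detected any other member by its sole or brighter probe.

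Against P, 2 of the 9 genes were called higher in NSB, against 1.89% of probes. Hoxc6 rose by 5.03 log2 units (SE 0.442, adjusted p = 2.44e-07, 95% interval 4.12 to 5.95), at least 17.3-fold, and Hoxc9 by 3.59 (SE 0.418, adjusted p = 8.85e-06, 95% interval 2.73 to 4.46), at least 3.89-fold. Hoxc12, detected on no array of either region (measured means 4.84 and 4.47), was not called (adjusted p = 0.119), though it was with array weights (adjusted p = 0.0051) and without the 4 arrays with the fewest detected probes (adjusted p = 0.00342). Its batch term rests on NSB replicate 3 (5.48, against 4.51 and 4.52), so no size is given. In the fit the NSB side of the Hoxc6 and Hoxc9 differences rests on that array too. No batch held both regions. Of the node and notochord markers, Noto, Foxa2 and Shh (3 of 5) were higher in NSB, where the 5 summed to 9024 to 11399 against 7972 to 8591 in P and T was brightest, and of the 7 visceral endoderm markers 2 (Apob and Amn) were lower in NSB. These 7 summed to 574 to 1053 in NSB, with Ttr brightest (7.97) and Afp, Apoa2 and Apob undetected, and to 4743 to 8666 in P. Hbb-bh1, 1 of 5 blood markers, was higher in NSB (sums 736 to 1347, brightest Hba-a1, Hbb-y and Alas2 undetected, against 163 to 254 in P), Isl1, 1 of 5 tested lateral plate markers, was lower (sums 169 to 180, brightest Tbx4, against 582 to 708 in P), and so was Otx2. The part of these markers in the Hoxc results was not tested.

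Within the E8.5 embryo Hoxc6 and Hoxc9 were detected in every region and read highest in St5. Hoxc6 read 8.49 and 9.51 in RN, 10.42, 10.87 and 10.73 in CLE, 10.43 and 10.56 in St1, and 11.77 and 12.05 in St5. Hoxc9 read 6.77 and 7.37 in RN, 8.75, 9.37 and 8.95 in CLE, 8.19 and 8.30 in St1, and 10.79 and 10.95 in St5. For both genes RN held the lowest E8.5 values and St5 the highest, and the St5 arrays overlapped those of no other E8.5 region. Hoxc10, whose paralogues act at the lumbar and hindlimb level, was detected by its brighter probe on both St5 arrays (6.90 and 7.48) and on no other array up to E8.5, where NSB gave 4.48, 4.74 and 4.51.

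**Figure D3:**
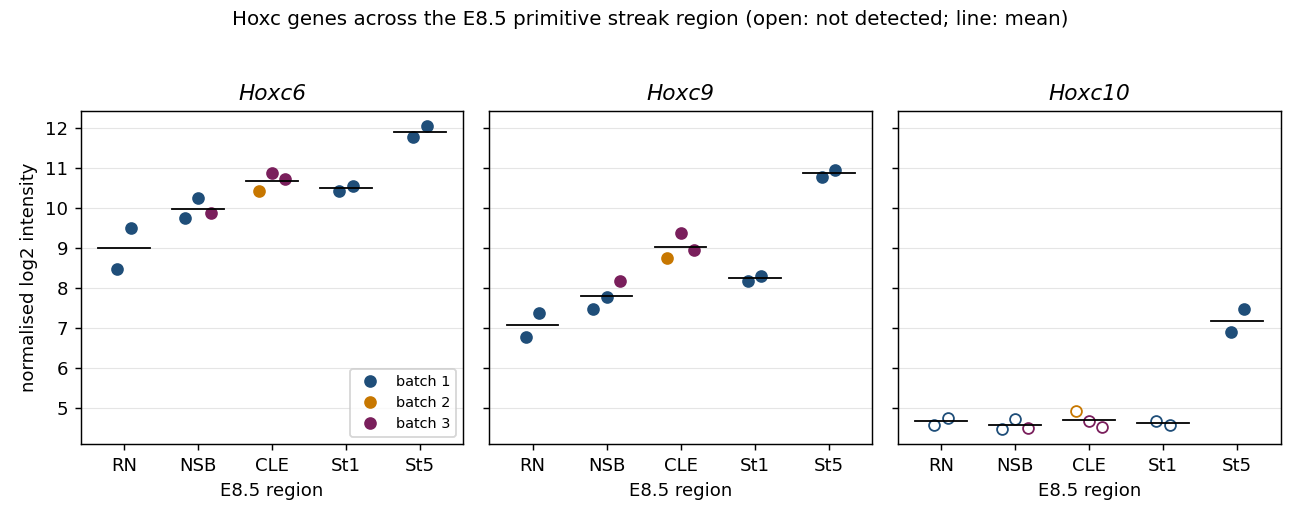
Hoxc6, Hoxc9 and Hoxc10 on each E8.5 array, in normalised log2 intensity, with colour by batch. Open points were not detected, and only NSB has arrays in both batch 1 and batch 3.

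Against NSB, 3 of the 9 genes were called higher in St5, against 2.14% of probes. Hoxc6 rose by 1.91 log2 units (SE 0.331, adjusted p = 0.000404, 3.75-fold), Hoxc9 by 3.25 (SE 0.313, adjusted p = 1.34e-07, 9.49-fold) and Hoxc10 by 2.58 (SE 0.313, adjusted p = 3.8e-06, at least 2.78-fold). Batch 1 holds both St5 arrays and 2 of the NSB arrays. NSB replicate 3 is taken up by the batch terms, so differences between batch 1 regions equal those within batch 1 by construction, and only the errors differ (adjusted p = 0.000275, 7.44e-08 and 3.9e-07 within batch 1). The other Hoxc10 probe gave 1.19 and was not called (adjusted p = 0.428).

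St5 was also the E8.5 region with the strongest lateral plate signal. All 5 tested lateral plate markers, of 6 listed, were called higher in St5 than in NSB (Tbx4, Isl1, Foxf1a, Pitx1 and Hand1; median difference 4.16). They summed to 4606 to 5758 per array in St5, where Tbx4 was brightest (11.60) and none was undetected, and to 169 to 180 in NSB, where Isl1, Foxf1a, Pitx1 and Hand1 were detected on no array. Node markers went the other way, with Noto, Foxa2, Shh and Chrd lower in St5, as were Sox2 among 2 tested neural markers and Meox1 and Tcf15 among 3 somite markers. None of the 2 tested presomitic markers was called. The part of these cell types in the Hoxc differences was not tested.

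In the model of all arrays the other E8.5 regions gave no Hoxc call against NSB. In RN limma called 0 of the 9, against 0.134% of probes in either direction, with 1 at unadjusted p < 0.05, Hoxc6 (95% interval -1.69 to -0.32, adjusted p = 1; within batch 1 adjusted p = 0.0974, and 0.0133 with BeadChip as a block, where it was called). For CLE limma called 0 of the 9, against 2.36% of probes, with 2 at unadjusted p < 0.05. These were Hoxc6 (0.83, SE 0.387, adjusted p = 0.555; 0.91 within batch 3, with 1 NSB array) and Hoxc9 (0.86, SE 0.365, adjusted p = 0.45; 0.98 within batch 3). In the fit the NSB side of both differences rests on NSB replicate 3. The CLE and NSB arrays do not overlap for either gene, and Hoxc9 was called when batch was left out of the model (1.21, adjusted p = 0.00586). It was also called with BeadChip as a random block (1.22, adjusted p = 0.00311). With batch means removed both Hoxc6 (1.52, adjusted p = 0.00326) and Hoxc9 (1.45, adjusted p = 0.00119) were called higher in CLE. In St1 limma called 0 of the 9, against 1.39% of probes, with 0 at unadjusted p < 0.05, and Hoxc9 gave 0.62 (adjusted p = 1; within batch 1 adjusted p = 0.0653, and 0.0127 with BeadChip as a block, where it was called). The block within batch 1 was chosen after seeing the data.

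The posterior end of the embryo could also be followed from E7.5 to E8.5. Hoxc6 and Hoxc9 were low in PP (means 6.65 and 5.40) and high in St5 (means 11.91 and 10.87), and the arrays do not overlap. Hoxc10 read 4.50 and 4.48 in PP, where its brighter probe was not detected. From PP to St5 3 of the 9 genes were called higher, against 0.479% of probes: Hoxc6 by 5.14 log2 units (SE 0.523, adjusted p = 6.73e-06, 35.4-fold), Hoxc9 by 6.03 (SE 0.494, adjusted p = 1.97e-07, at least 41.5-fold) and Hoxc10 by 2.60 (SE 0.494, adjusted p = 0.00905, at least 3.24-fold), with the Hoxc10 call lost without background correction (adjusted p = 0.0898) and at offset 100 (adjusted p = 0.224). The Hoxc10 call was also lost without NSB replicate 1 (adjusted p = 0.0526) or St5 replicate 2 (adjusted p = 0.0643), and the other Hoxc10 probe gave 0.59 (adjusted p = 0.852). No batch held both regions, and all 3 fitted differences pass through the batch tie of NSB replicate 3. The 7 visceral endoderm markers summed to 1623 to 1696 in St5, with Ttr brightest (9.61) and Afp and Apoa2 undetected, against the 14646 to 32047 in PP given above, and the lateral plate markers to 730 to 835 in PP. Their part in the result was not tested.

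Between E8.5 and E9.5 the axis turns from primitive streak to tail bud, and Hoxc6, Hoxc9 and Hoxc10 rose steeply. Hoxc10 read 12.68 and 12.75 in E9.5 CNH, where its brighter probe had been undetected in NSB. Hoxc9 read 12.83 and 12.82, and Hoxc6 13.21 and 13.20. In all 3 genes both CNH arrays lay far above the NSB arrays. Hoxc11, which with its paralogues acts at the sacral level, read 6.25 and 6.12 against 4.69, 4.69 and 4.63 in NSB. Hoxc13, the most 5′ member and also a regulator of hair keratins, read 6.11 and 6.21 against 4.56, 4.77 and 4.64. Their arrays do not overlap either, though the steps were small.

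**Figure D4:**
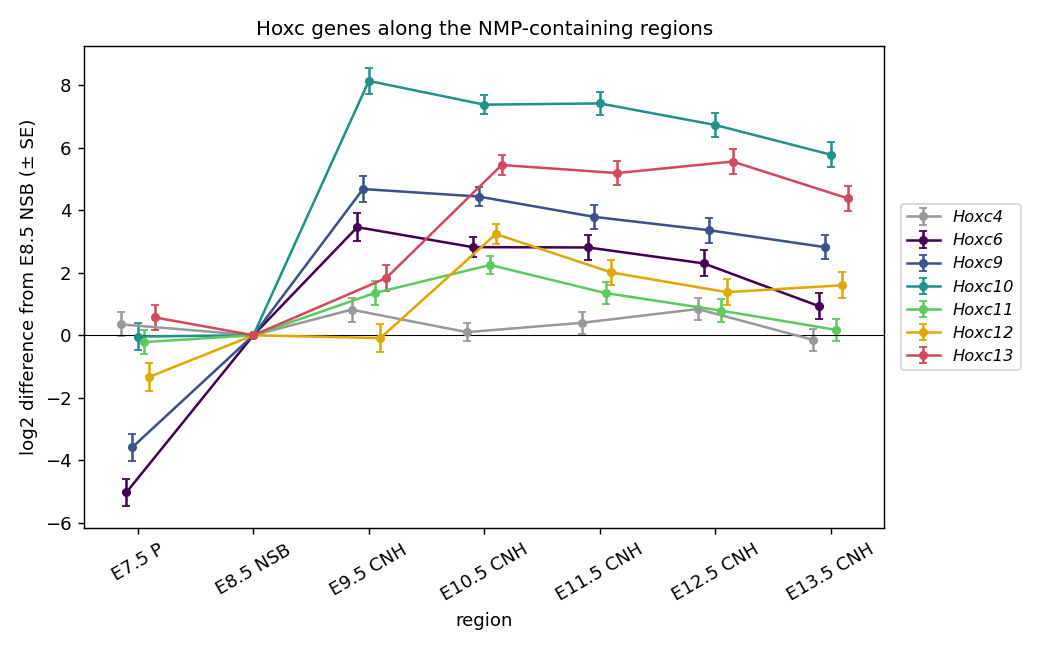
Log2 difference from E8.5 NSB, with its standard error, for the 7 tested Hoxc genes in E7.5 P and in the CNH from E9.5 to E13.5. In the fit the E10.5 CNH points are set against NSB replicates 1 and 2, and all other points against NSB replicate 3.

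In E9.5 CNH against NSB, 5 of the 9 genes were called higher, against 1.99% of probes, and 0 lower by limma, against 2.93% and with 0 lower at unadjusted p < 0.05. Hoxc6 rose by 3.46 log2 units (SE 0.442, adjusted p = 1.27e-05, 11-fold), Hoxc9 by 4.68 (SE 0.418, adjusted p = 6.05e-08, 25.7-fold) and Hoxc10 by 8.14 (SE 0.418, adjusted p = 2.23e-11, at least 128-fold). Hoxc11 rose by 1.35 (SE 0.379, adjusted p = 0.0383, at least 1.39-fold), a call lost without background correction (adjusted p = 0.0549), at offset 100 (adjusted p = 0.0778) and with cyclic loess normalisation (adjusted p = 0.657). Hoxc13 rose by 1.83 (SE 0.414, adjusted p = 0.00845, at least 1.36-fold), a call lost under the same settings (adjusted p = 0.0605, 0.178 and 0.938). The Hoxc11 call was lost in 15 of the 35 refits that left out 1 array, with adjusted p = 0.152 without E9.5 CNH replicate 1 and 0.102 without replicate 2. The other arrays were replicates 1 and 2 of NSB, RN, St1, E10.5 CNH and E12.5 CNH, A replicates 1 and 3, and CLE replicate 1 (adjusted p = 0.0501 to 0.0584). The dimmer Hoxc11 probe was also called higher, by 2.34 (SE 0.371, adjusted p = 0.000217, at least 1.91-fold). Hoxc4 (0.82, adjusted p = 0.284; detected on no NSB array) and Hoxc12 (-0.09, SE 0.447, adjusted p = 0.965; detected in neither region) were not called. No batch held both regions, and in the fit the NSB side of every difference here rests on NSB replicate 3 alone. The Hoxc11 difference stayed at 1.35 without NSB replicate 1 or 2 and could not be fitted without replicate 3. For Hoxc12 that array read 5.48 where replicates 1 and 2 read 4.51 and 4.52, beside 5.71 and 5.72 in E9.5 CNH.

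Red cell genes moved with the same step. Of 5 blood markers 3 (Hbb-y, Hbb-bh1 and Hba-x) were called higher in the CNH than in NSB at both E9.5 and E10.5, with medians of 3.87 and 5.07. The 5 summed to 736 to 1347 per array in NSB, where Hba-a1 was brightest (8.98) and Hbb-y and Alas2 were undetected, to 30414 to 30950 in E9.5 CNH, where Hbb-y was brightest (13.30), and to 24286 to 25034 in E10.5 CNH. In E9.5 P-CNH they summed to 3132 to 5745. Means there were 13.26 for Hoxc6, 12.79 for Hoxc9 and 12.75 for Hoxc10, beside 13.21, 12.82 and 12.72 in the CNH, while Hoxc11 (5.80 beside 6.19) and Hoxc13 (5.48, undetected, beside 6.16) were lower in P-CNH, with no call for any of the 5. The anterior neural marker Otx2, 1 of 3 listed, was called lower in both comparisons, though only 1 of the 3 NSB arrays detected it, Meox1 fell and later Tcf15 rose among the somite markers, and Cldn4, 1 of 5 surface ectoderm markers, fell at E9.5. Foxa2, 1 of 5 node and notochord markers, was lower at E9.5 (list median -1.78; sums 9024 to 11399 in NSB and 13322 to 14316 in E9.5 CNH, T brightest in both). At E10.5 Ttr and Amn, 2 of 7 visceral endoderm markers, were lower (sums 226 to 287, with Afp, Ttr, Apoa2, Apob and Amn undetected and Rbp4 brightest), as was Tbx4 among the lateral plate markers (sums 127 to 129, all 5 undetected). In E9.5 CNH neither list gave a call. All 7 visceral endoderm markers were undetected there (sums 245 to 252, against 574 to 1053 in NSB), as were all 5 lateral plate markers (sums 138 to 151, against 169 to 180). The part of these markers in the Hoxc results was not tested.

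At E10.5 Hoxc12 and Hoxc13, at the 5′ end of the cluster, read higher than at any earlier stage. Hoxc12 read 7.78 and 7.72 in E10.5 CNH, and Hoxc13 10.11 and 10.13. By its brighter probe Hoxc11 read 6.90 and 6.98, its highest values in any CNH. By these probes the E10.5 arrays of all 3 genes lay above every E9.5 and NSB array. The dimmer Hoxc11 probe read 6.28 and 6.01 in E10.5 CNH, below its values of 6.60 and 6.69 in E9.5 CNH.

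Against NSB, 6 of the 9 genes were called higher in E10.5 CNH, against 3.51% of probes, and 0 lower by limma, against 3.61% and with 0 lower at unadjusted p < 0.05. Hoxc6 rose by 2.82 log2 units (SE 0.331, adjusted p = 2.16e-06, 7.04-fold), Hoxc9 by 4.44 (SE 0.313, adjusted p = 5.68e-10, 21.7-fold) and Hoxc10 by 7.38 (SE 0.313, adjusted p = 1.3e-13, at least 77.3-fold). Further 5′, Hoxc11 rose by 2.25 (SE 0.283, adjusted p = 5.85e-06, at least 2.34-fold), Hoxc12 by 3.24 (SE 0.334, adjusted p = 3.16e-07, at least 4.11-fold) and Hoxc13 by 5.45 (SE 0.31, adjusted p = 1.46e-11, at least 21.2-fold). Within batch 1, which holds both E10.5 arrays and 2 of the NSB arrays and gives the same differences by construction, adjusted p = 8.47e-06, 4.41e-09, 7.59e-11, 1.84e-08, 1.18e-09 and 3.84e-11 in that order. No left-out array changed any of the 6 calls. Hoxc4 gave 0.10. In the fit this comparison takes NSB from replicates 1 and 2, and that of E9.5 CNH takes it from replicate 3.

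Between E9.5 and E10.5 CNH both calls lay at the 5′ end of the cluster. Here 2 of the 9 genes were called higher, against 0.0461% of probes (10 probes in all). Hoxc12 rose from a measured mean of 5.71, undetected, to 7.75, at least 3.42-fold (adjusted p = 0.0275). Its fitted difference of 3.33 (SE 0.558) carries the batch term that rests on NSB replicate 3. Hoxc13 rose by 3.62 log2 units (SE 0.518, adjusted p = 0.00542, 95% interval 2.54 to 4.69, 12.3-fold), from a measured mean of 6.16 to 10.12. Its fitted difference, like every other between these stages, also passes through NSB replicate 3. Hoxc11 gave 0.90 (adjusted p = 0.839), Hoxc6 -0.64, Hoxc9 -0.24 and Hoxc10 -0.77, none of them called. The dimmer Hoxc11 probe went the other way, with -0.71 (adjusted p = 0.946). With batch means removed Hoxc6 was called lower (-1.91, adjusted p = 0.00892). With array weights Hoxc10 was called lower (-0.96, adjusted p = 0.0423) and Hoxc11 higher (0.98, adjusted p = 0.00332). The Hoxc12 call was lost without NSB replicate 1 (adjusted p = 0.141) or 2 (0.105), either E9.5 CNH array (0.141 and 0.0893), either E10.5 CNH array (0.104 and 0.113), or replicate 3 of E11.5 CNH (0.0579). No batch held both stages, and the E9.5 arrays are shared with the other comparisons against E9.5.

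Hoxc12 and Hoxc13 still lay above their E9.5 values at E11.5. Hoxc12 read 7.88, 7.98 and 7.27 and Hoxc13 9.11, 9.60 and 10.16, all above the E9.5 arrays. Hoxc6 (12.60, 12.78 and 12.44), Hoxc9 (11.87, 12.38 and 11.57) and Hoxc10 (11.35, 12.37 and 12.19) lay below their E9.5 arrays without a call. Against E9.5 CNH 2 of the 9 genes were called higher, against 2.83% of probes. Hoxc12 rose by 2.11 log2 units (SE 0.311, adjusted p = 0.000164). Its call was lost with BeadChip as a random block (1.59, adjusted p = 0.0522), so no "at least" fold is given. Hoxc13 rose by 3.36 (SE 0.288, adjusted p = 1.58e-07, 10.3-fold). Within batch 2 the differences were 2.22 and 3.19 (adjusted p = 0.00143 for both). Hoxc9 gave -0.90 (adjusted p = 0.0783), Hoxc6 -0.65 (adjusted p = 0.264) and Hoxc10 -0.73 (adjusted p = 0.167). Hoxc9 and Hoxc10 were called lower with array weights (adjusted p = 0.00152 and 0.0172) and without the 4 arrays with the fewest detected probes (adjusted p = 0.0124 and 0.0354). Hoxc11 gave 0.00 with its brighter probe (adjusted p = 0.997) and -1.41 with the other (SE 0.258, adjusted p = 0.00176), so its course after E9.5 depends on the probe.

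Markers of other tissues also differed between the E9.5 and the later CNH, and were not tested as lists in these comparisons. From E9.5 to E11.5 CNH the 3 somite markers went from sums of 500 to 535 to sums of 1026 to 1304 (831 to 843 at E10.5), with Tcf15 brightest and Pax3 undetected at E9.5 and E10.5. The 5 surface ectoderm markers went from 256 to 274, with Trp63, Krt14 and Krt15 undetected, to 370 to 407 at E10.5 and 374 to 792 at E11.5, where Cldn4 was brightest (8.37) and Grhl3 undetected. Nkx6-2, 1 of the 4 neural markers, was undetected at E9.5 (mean 5.20) and detected on all 3 E11.5 arrays (7.08), and the 4 summed to 266 to 288 and to 274 to 493, with Sox2 brightest. Blood sums of the 3 E11.5 arrays ran from 4710 to 36965, against 30414 to 30950 at E9.5. The part of these markers in the Hoxc12 and Hoxc13 results was not tested.

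By E13.5, near the end of tail growth, the cluster had split into genes below and genes above their E9.5 level. Hoxc6 read 11.96 and 12.29 at E12.5 and 10.35 and 11.15 at E13.5. Hoxc9 read 11.32 and 11.71, then 10.56 and 11.41, and Hoxc10 10.90 and 11.65, then 10.66 and 9.98. The E13.5 arrays of these 3 genes lay below both E9.5 arrays. Hoxc12 read 6.87 and 7.17 at E12.5 and 6.80 and 7.69 at E13.5, and Hoxc13 9.46 and 10.62, then 8.72 and 9.00, all above both E9.5 arrays. Hoxc11 read 5.11 and 4.70 at E13.5, where it was not detected.

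In E13.5 against E9.5 CNH, 7 of the 9 genes were called, against 23.3% of probes in either direction. Of the 7, 5 were lower and 2 higher, beside 2712 probes lower and 2345 higher in all. Hoxc6 fell by 2.53 log2 units (SE 0.342, adjusted p = 1.65e-05, 5.76-fold), Hoxc10 fell by 2.37 (SE 0.324, adjusted p = 1.85e-05, 5.15-fold), and Hoxc9 fell by 1.86 (SE 0.324, adjusted p = 0.000274, 3.63-fold), a call lost with cyclic loess (adjusted p = 0.0766). Hoxc4 was called lower (adjusted p = 0.0218), which is lost with cyclic loess (adjusted p = 0.529) and at offset 100 (adjusted p = 0.0569), and Hoxc11 was called lower (adjusted p = 0.00605), which is lost with cyclic loess (adjusted p = 0.228) and at offset 100, where the change was under 1.5-fold. No E13.5 array detected Hoxc4 or Hoxc11, and the E9.5 means of both (6.09 and 6.19) lay below the mean of the lowest detected signals on the E13.5 arrays, so no size is given for either. Hoxc12 rose by 1.69 (SE 0.346, adjusted p = 0.00131), a call lost with cyclic loess (adjusted p = 0.0538). Its E13.5 arrays read 6.80 (replicate 1) and 7.69 (replicate 2). The Hoxc12 difference was 1.14 with BeadChip as a random block and 1.09 within batch 2, so no "at least" fold is given. Hoxc13 rose by 2.55 (SE 0.321, adjusted p = 6.96e-06, 5.84-fold). Within batch 2, with 1 E13.5 array against 2 and the spread taken from other groups, the differences were -2.86 for Hoxc6 (adjusted p = 0.000763), -2.26 for Hoxc9 (0.00267), -2.06 for Hoxc10 (0.0158), 1.09 for Hoxc12 (0.0128) and 2.56 for Hoxc13 (0.00245), while Hoxc11 had adjusted p = 0.0144 and Hoxc4 0.122, which ends its call. The Hoxc4 call was lost without E9.5 CNH replicate 1 (adjusted p = 0.124) or 2 (0.0716) or E13.5 CNH replicate 1 (0.106), and the Hoxc11 call without E9.5 CNH replicate 1 (0.0523). BeadChip as a random block ended the Hoxc4 (adjusted p = 0.133) and Hoxc12 (0.0974) calls, and array weights those of Hoxc4 (0.337), Hoxc9 (0.0507) and Hoxc11 (0.0644).

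The 2 E13.5 arrays stood apart from each other. Replicate 2 has the fewest detected probes of all arrays (10814, against 13979 for replicate 1) and the lowest array weight (0.117), and node marker sums ran from 5524 to 17102, with Noto and Foxa2 detected on 1 of the 2. Without the 4 arrays with the fewest detected probes, which include it and leave 1 E13.5 array, the 7 calls were kept with the spread taken from other groups. Over all tested probes the median difference between these stages was -0.11, and 0.12 with cyclic loess. Surface ectoderm markers moved with the same step: 3 of 5 (Trp63, Krt14 and Cldn4) were called higher at E13.5, with a median of 3.92. They summed to 256 to 274 per array in E9.5 CNH and to 3293 to 3358 in E13.5 CNH, where Krt14 was brightest (10.59) and Krt15 undetected. Of the node markers Chrd rose and Noto fell, Nkx6-2 rose among the neural markers, Meox1 rose among the somite markers, and Hbb-bh1 fell among the blood markers. Otx2, called higher, was detected on no array of either region. Their part in the Hoxc changes was not tested.

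The P-CNH, which lies caudal to the CNH, gave no Hoxc call against it at any stage in the model of all arrays. At E9.5 Hoxc10 read 12.95 and 12.56 there, Hoxc13 5.47 and 5.49, and Hoxc12 5.67 and 4.68. At E10.5 Hoxc13 read 10.32 and 10.19 and Hoxc12 8.09 and 7.86. At E11.5 Hoxc13 read 9.58 and 10.68 and Hoxc11 4.68 and 6.09. At E9.5 Hoxc13 and Hoxc4 were detected on both CNH arrays and on neither P-CNH array (Hoxc4 5.22 and 5.01 in P-CNH). Hoxc12 was detected there on P-CNH replicate 1 and on neither CNH array, and the dimmer Hoxc11 probe gave -0.65 (adjusted p = 0.968). The Hoxc11 arrays of the regions overlapped at E11.5.

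At E9.5 limma called 0 of the 9 genes between P-CNH and CNH, against 0.17% of probes, with 1 at unadjusted p < 0.05, Hoxc13 (-0.83, adjusted p = 0.815; -0.68 within batch 2, with 1 P-CNH array), which was called with array weights (-0.94, adjusted p = 0.0146). At E10.5 limma called 0 of the 9, against 0.322%, with 0 at unadjusted p < 0.05, and all 4 arrays are in batch 1 (Hoxc6 0.29, Hoxc9 0.28). At E11.5 limma called 0 of the 9, against 0.138%, with 1 at unadjusted p < 0.05, Hoxc11 (-0.59, adjusted p = 0.999; -0.47 within batch 3, with 1 CNH array; 0.57 with the other probe), and leaving out P-CNH replicate 2 gave 1 call. Whether the P-CNH difference itself changed with stage was tested with an F test in limma, which called 0 of the 9 genes, against 0.0184% of probes, with 1 at unadjusted p < 0.05 by the brighter probe. That gene was Hoxc13, whose difference from the CNH shifted by 0.97 at E10.5 and 1.13 at E11.5 relative to E9.5, where P-CNH did not detect it (F test, unadjusted p = 0.031, adjusted p = 1). The dimmer Hoxc11 probe shifted by 0.67 and 1.22 (F test, unadjusted p = 0.0139, adjusted p = 1).

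Hoxc4, Hoxc5 and Hoxc8 gave little signal. Hoxc4, which acts in cervical patterning, passed detection on 9 arrays, 4 of the 19 taken up to E8.5 and 5 of the 17 later ones, and its fitted region means spanned 1.20 log2 units. It read 6.18 and 6.01 in E9.5 CNH and 5.01 and 4.38 in E13.5 CNH. The E9.5 values lie inside the range of the A arrays given above, and the E13.5 values below it. The Hoxc5 probe never passed detection (lowest detection p-value 0.109) and its region means lay between 4.53 and 4.91. Hoxc8, which acts in the lower thorax, came nearer, with a lowest detection p-value of 0.0598 and region means of 4.52 to 5.33. For Hoxc5 and Hoxc8 a silent gene and a probe that does not report it cannot be told apart.

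Hoxc10 and Hoxc11 each had 2 probes, and the brighter was used above. Over the 36 arrays the 2 Hoxc10 probes correlated at r = 0.97 and the 2 Hoxc11 probes at r = 0.83. The dimmer Hoxc10 probe was detected in 13 regions, from E7.5 A and P onwards, and on 15 of the 19 arrays up to E8.5 (values over all 19, detected or not, 4.68 to 6.93), against 2 of 19 for the brighter probe. Among them were NSB replicates 1 and 2 and PP replicate 2, so the onset of Hoxc10 in St5 holds for 1 probe. The dimmer Hoxc11 probe was highest in E9.5 CNH (mean 6.65, against 6.14 in E10.5 CNH), whereas the brighter was highest at E10.5 (means 6.19 and 6.94). In E13.5 against E9.5 CNH the dimmer Hoxc10 probe gave -3.31 (adjusted p = 0.000262). The dimmer Hoxc11 probe, detected on no E13.5 array, was at least 1.2-fold lower (adjusted p = 0.000113).

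**Figure D5:**
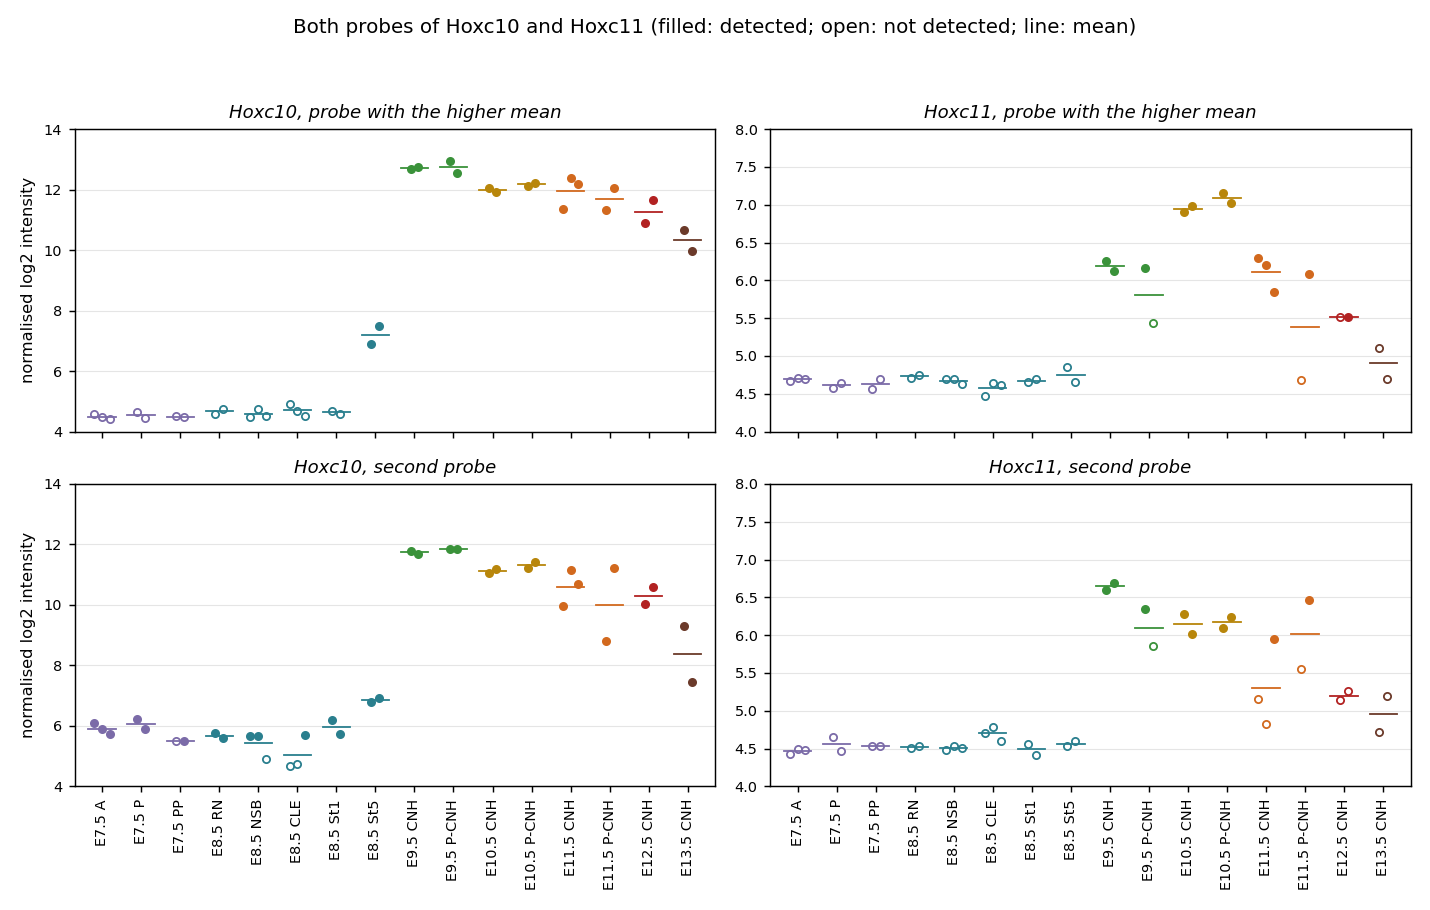
Normalised log2 intensity of both probes of Hoxc10 and of Hoxc11 on each array, by region. Filled points were detected and open points were not.

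The order of the regions differed between the genes. After the batch terms were fitted, Hoxc6 was highest in E9.5 CNH (13.34) and E9.5 P-CNH (13.32), followed by the E10.5 and E11.5 regions down to 12.62, and Hoxc10 was also highest at E9.5 (12.78 in P-CNH and 12.71 in CNH). The top fitted region was E10.5 P-CNH for Hoxc9 (12.70), Hoxc11 (7.12), Hoxc12 (8.73) and Hoxc13 (10.13), while the dimmer Hoxc11 probe was highest in E9.5 CNH (6.78). Before that fit the Hoxc9 mean was lower in E10.5 P-CNH (12.35) than in E9.5 CNH (12.82) and E9.5 P-CNH (12.79). The measured Hoxc12 mean in E10.5 P-CNH was 7.98, and the fitted value carries the batch term that rests on NSB replicate 3. The top neighbours of each of the 6 genes lay closer together than the residual SD, so that which of them is highest is not settled. Of the 15 neighbouring pairs in each order, those further apart than the residual SD and with no overlap of arrays numbered 6 for Hoxc6, 5 for Hoxc9, 4 for Hoxc10, 1 for Hoxc11, 3 for Hoxc12, 4 for Hoxc13 and 0 for Hoxc4. This rule describes the order and is not a test. Hoxc6 in St1 and NSB met it, though limma gave an unadjusted p of 0.151 for that difference.

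For Hoxc6 the separated neighbours were E11.5 P-CNH over E12.5 CNH (12.18), St5 (11.79) over E13.5 CNH (10.81), St1 (10.37) over NSB (9.88), NSB over RN (8.88), RN over PP (6.64) and PP over P (4.85). For Hoxc9 they were E13.5 CNH (10.81) over CLE (8.84), St1 (8.60) over NSB (7.98), NSB over RN (7.43) and RN over PP (5.20), and a further step placed PP over A, where neither region detected it. Hoxc10 fell into steps at E9.5, at E10.5 to E12.5 (12.12 to 11.30), at E13.5 (10.34), at St5 (7.15) and at the undetected regions. The Hoxc11 order had its only step below E10.5 CNH (6.97). Hoxc13 had steps below E11.5 CNH (9.74), E13.5 CNH (8.92) and E9.5 CNH (6.38), and its last step, below E9.5 P-CNH, lay between regions that did not detect it. In Hoxc12 the uppermost step lay below E12.5 CNH (6.64), so that all regions from E10.5 on stood above all earlier ones, and no array of the regions on either side of its last step detected it.

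Across the 16 fitted region means, which share arrays and batch terms, the correlations between members varied both for neighbours and for genes further apart. Among genes next to each other in the tested order, r was -0.29 for Hoxc4 and Hoxc6, 0.98 for Hoxc6 and Hoxc9, 0.88 for Hoxc9 and Hoxc10, 0.83 for Hoxc10 and Hoxc11, 0.79 for Hoxc11 and Hoxc12 and 0.90 for Hoxc12 and Hoxc13. Among the other pairs without Hoxc4, r ran from 0.57 (Hoxc6 and Hoxc13) to 0.80 (Hoxc6 and Hoxc10, Hoxc10 and Hoxc13). Hoxc4 gave -0.35 to 0.00 with the others.

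Likeness was measured by Pearson r over the 16 regions among 15971 probes whose region means ranged over at least 1 log2 unit. How often Hox genes would appear in such lists was not tested. The 5 genes most like each member detected in 2 or more regions are named here. For Hoxc6 they were Hoxc9 (r = 0.978), Mllt3 (0.971), Hoxa7 (0.963), Hoxd3 (0.958) and Hoxd4 (0.953), and for Hoxc9 they were Hoxc6, Mllt3 (0.957), Hoxd3 (0.953), Cd40 (0.953) and Mast2 (0.952). Hoxc10 was closest to 4632427N05Rik (0.984), Hoxa11s (0.984), Hoxd10 (0.984), Scara5 (0.983) and 2610528A11Rik (0.982). Hoxc12 was closest to Stac (0.964), Zdhhc9 (0.964), Creld1 (0.962), Epor (0.949) and Hoxd12 (0.933), and Hoxc13 to Cltb (0.973), Hoxd12 (0.970), LOC100046457 (0.969), C920004C08Rik (0.963) and Lima1 (0.960). The Hoxd12 probe in these comparisons ranged over 2.38 log2 units and is not the brighter Hoxd12 probe given with the paralogues below. The Hoxc11 probe was closest to Islr (0.960), Adam12 (0.934), Prr18 (0.932), Cep55 (0.926) and Gnal (0.924).

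Some paralogues in the Hoxa and Hoxd clusters also rose in the tail bud. Of 20 listed paralogues 18 were tested, and no Hoxb paralogue was called higher at E9.5 or E10.5. In E9.5 CNH against NSB 5 were higher, beside 1.99% of all probes, and 0 lower (median 0.94, against 0.07 over all tested probes), and in E10.5 CNH against NSB 9 were higher, beside 3.51%, and 0 lower (median 1.11, against -0.01). The largest differences were those of the Hoxd genes. Hoxd10 rose by 7.53 and 8.23 (adjusted p = 2.85e-11 and 1.85e-14), Hoxd12 by 5.07 and 7.23 (adjusted p = 3.54e-09 and 4.65e-14), Hoxd9 by 5.61 and 4.60 (adjusted p = 7.04e-06 and 1.08e-06) and Hoxd8 by 5.02 and 4.98 (adjusted p = 7.09e-09 and 2.52e-11). In St5 against NSB 6 were higher (median 0.16), beside 2.14% of all probes, and in NSB against P 5 (median 0.59), beside 1.89%. In E13.5 against E9.5 CNH, where 23.3% of all probes were called, 2 were higher, Hoxd12 and Hoxd13, and 6 lower (median -0.42).

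Among genes that regulate Hox clusters, such as the Cdx factors and Wnt, FGF and retinoic acid signals, calls went in both directions. Of 16 listed 15 were tested, and in E9.5 CNH against NSB 1 was higher and 5 lower (median 0.00), beside 1.99% of all probes higher and 2.93% lower, and in E10.5 CNH 3 higher and 5 lower (median -0.12), beside 3.51% and 3.61%. Nr6a1, an orphan nuclear receptor of the early trunk, gave -5.76 and -7.87 (adjusted p = 4.23e-09 and 9.09e-14), Cdx1 -5.58 and -5.50 (adjusted p = 1.44e-09 and 5.04e-12) and Wnt8a -5.07 and -5.82 (adjusted p = 8.58e-09 and 2.95e-12). Cyp26a1, which breaks down retinoic acid, rose by 3.25 and 2.73 (adjusted p = 5.08e-05 and 5.95e-06). The other regulators called higher at E10.5 were Fgf8 and Gdf11. By E13.5, against E9.5 CNH, 9 were lower, beside 2712 of all 21712 tested probes, with Cdx1, Cdx2, Cdx4, Wnt3a, Fgf8 and Cyp26a1 among them, and 1, Aldh1a2, was higher.

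The Pbx, Meis and Pknox families encode proteins that bind DNA with Hox factors. All 9 were tested, and in E9.5 and E10.5 CNH against NSB 0 were higher and 1 lower, beside 2.93% and 3.61% of all probes lower. This was Meis2 (-3.19 and -3.47, adjusted p = 0.000726 and 3.09e-06), and the list medians were -0.51 and -0.47, against 0.07 and -0.01 over all tested probes. Of 12 Polycomb and Trithorax genes, which hold Hox clusters silent or active, 8 were tested and limma called 0 in both (medians -0.02 and -0.05). Of 10 genes flanking the cluster 7 were tested. Among these Smug1, beyond the Hoxc4 end, rose by 2.13 and 1.42 (adjusted p = 0.000145 and 0.00032), and Itga5, on the same side, by 1.72 at E10.5 (adjusted p = 0.0243; medians 0.09 and 0.02). In E13.5 against E9.5 CNH, where 23.3% of all probes were called, 1 of these 7 was lower and 1 higher. Smug1 fell by 1.60, and Calcoco1, beyond the Hoxc13 end, rose by 1.72.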

How the data were processed

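The deposited table holds the mean bead intensity of each probe on each of 36 Illumina MouseWG-6 v2.0 arrays, on a linear scale with background included and before any normalisation. The deposited detection p-value of each probe compares it with the negative-control beads of its array. In R 4.3.3, intensities were background-corrected from the detection p-values and quantile normalised on the log2 scale with neqc of limma 3.58.1 (offset 16), which here takes the place of the variance-stabilising transformation and spline normalisation of lumi. Probes with no detection p-value under 0.01 (23569) were left out and 21712 were tested. A linear model with a term for each of 16 regions and for each batch (in place of ComBat) was fitted with 18 residual degrees of freedom, and p-values of 16 comparisons were adjusted by Benjamini-Hochberg over all tested probes. With 2 or 3 arrays a region, standard errors of a difference had medians of 0.311 to 0.558 log2 units. Genes with 2 probes are given by the brighter one.

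Members and lists (paralogues, Hox regulators, cofactors, Polycomb and Trithorax genes, flanking genes, and tissue markers) were chosen with earlier results of these data known. Named genes are the members, up to 4 genes of a list with the largest absolute difference, called markers, and the 5 genes with the highest Pearson correlation over regions. Alternatives were no background correction, offset 100, cyclic loess, no batch term, removal of batch means, BeadChip as a random block, replicate number as a fixed block, array weights, other detection filters, the other probe, single batches, and leaving out each array. Block by BeadChip within batch 1 and omission of 4 arrays with few detected probes were added after seeing the data. The code was tested on simulated data.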

Additional observations from a re-analysis of the deposited data

How the results depend on the processing

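Of 31 calls of a Hoxc gene, 28 were kept without background correction, 25 at offset 100, 25 with cyclic loess, 31 without a batch term, 28 with BeadChip as a random block, 28 with array weights and 31 without the 4 arrays with the fewest detected probes, and none changed direction. The other probe exists only for Hoxc10 and Hoxc11 and kept 6 of their 8 calls. The limits are the 2 or 3 pooled arrays of a region, batches that hold few of the regions compared, and the tie of batch 1 through NSB replicate 3 alone. Without that array, NSB against P, E9.5 CNH against NSB, E10.5 against E9.5 CNH, St5 against PP and CLE against NSB could not be fitted. Array weights ran from 0.117 to 29.4.

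The number of Hoxc genes called moved as follows, and the cause was not tested. For NSB against P (2) it was 3 with array weights, 3 without the 4 arrays and from 2 to 3 when 1 array was left out. For E9.5 CNH against NSB (5) it was 3 without background correction, 3 at offset 100 and 3 with cyclic loess, 4 with replicate number as a block, 6 with array weights and from 4 to 5 when 1 array was left out. For E10.5 against E9.5 CNH (2) it was 3 with batch means removed, 4 with array weights and from 1 to 2 when 1 array was left out. For E11.5 against E9.5 CNH (2) it was 1 with BeadChip as a random block, 3 at offset 100, 3 with the other probe, 4 with array weights, 4 without the 4 arrays and from 2 to 3 when 1 array was left out. For E13.5 against E9.5 CNH (7) it was 3 with cyclic loess, 4 with array weights, 5 at offset 100, 5 with BeadChip as a random block, 6 within batch 2 and from 5 to 7 when 1 array was left out. For St5 against PP (3) it was 2 without background correction, 2 at offset 100, 2 with the other probe, 4 with array weights and from 2 to 3 when 1 array was left out. For St5 against NSB (3) it was 2 with the other probe. For P against A (0) it was 1 with array weights. For PP against A (1) it was 0 at offset 100, 3 with array weights, 0 within batch 3, where no probe was called, and 2 without the 4 arrays. For RN against NSB (0) it was 1 with array weights and 1 with BeadChip as a block within batch 1. For CLE against NSB (0) it was 1 without a batch term, 2 with batch means removed and 1 with BeadChip as a random block. For St1 against NSB (0) it was 1 with array weights and 1 with BeadChip as a block within batch 1. For P-CNH against CNH it was 1 with array weights at E9.5 (0) and from 0 to 1 when 1 array was left out at E11.5 (0).

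The labels give no shared animal to a replicate number, but in batch 1 replicates 1 of all regions lie on 1 BeadChip and replicates 2 on another. Piece counts also match there, with 45 on every E8.5 array of batch 1 and 17 on every E10.5 array. E7.5 A and P match at 9 pieces in replicates 1 and 13 in replicates 2. Whether matching arrays hold parts of the same embryos is not stated. Over the 120 pairs of regions, replicate differences correlated at -0.68 to 0.61 (median 0.06), and over the 10 pairs of the 5 regions wholly in batch 1 at 0.00 to 0.41 (median 0.17, 5 over 0.1). In batch 1, where BeadChip and piece counts match, no correlation was below 0.00, so this check does not settle whether the numbers pair. Replicate number as a fixed block kept 30 of the 31 calls, losing Hoxc11 in E9.5 CNH against NSB (adjusted p = 0.051), and BeadChip as a replicate block within batch 1 kept 9 of 9 calls and added Hoxc6 in RN and Hoxc9 in St1.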
